A study of Homo sapiens with 12 samples.

Results

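Ibrutinib was added to ironomycin in 3 mantle cell lymphoma (MCL) cell lines, and this comparison used 6 of the 12 RNA-seq libraries in the series: the 3 libraries treated with both drugs (Irono+Ibru) and the 3 treated with ironomycin alone (Irono), chosen by their treatment labels and paired by cell line. The lines were JEKO1, JVM2 and MAVER1, each represented by 1 library per treatment, all taken after 48 h. JEKO1 cells received 50 nM ironomycin, whereas JVM2 and MAVER1 cells received 250 nM, and the dose was the same in both libraries of a line. Ibrutinib was given at 0.5 µM in JEKO1, 1.5 µM in JVM2 and 6.25 µM in MAVER1, so that dose and line cannot be told apart. The cell line was the replicate (n = 3), and the p-values measure the spread of the effect between these lines and not between cultures of 1 line. The other 6 libraries, untreated (Ctrl) or given ibrutinib alone (Ibru), were used to set the effect of ibrutinib beside its effect in the absence of ironomycin, in the test of differences between lines and in the scaling of the printed levels.

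The ionophore salinomycin is the parent compound of ironomycin, under which iron builds up in lysosomes and is lacking in the rest of the cell. Ibrutinib binds covalently to Bruton's tyrosine kinase (BTK), which carries the signal of the B-cell receptor (BCR) from LYN and SYK to phospholipase C gamma 2 and on to calcium, MAP kinase and NF-kappa-B. Genes transcribed within minutes of receptor signalling, such as EGR1, EGR2 and DUSP2, and genes induced later in activated B cells are common readouts of this pathway, and RAG1 is activated in B-lineage cells by FOXO1, a factor that receptor signalling through AKT restrains.

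The count tables held 35448523 to 38378904 reads assigned to genes in these 6 libraries, and 16263 genes passed the filter on low counts. Levels are given as CPM, the reads of a gene relative to the library total scaled by the trimmed mean of M-values (TMM), and differences as log2 fold changes of Irono+Ibru over Irono from edgeR's quasi-likelihood fit, with the SE from that fit and p-values adjusted by the Benjamini-Hochberg method over all genes tested. Sums of markers are given per library total, without TMM scaling. On that scale the 6 B-cell markers summed to 1184 to 1719 CPM with ironomycin and 1299 to 1810 CPM with both drugs. Of the MCL markers, SOX11 had 0 reads and CD5 at most 2 reads in JVM2, while CCND1 was detected in every line. Markers of other cell types were lower in sum: the 5 T-cell markers summed to 0.0521 to 1.44 CPM with ironomycin and to 0.0525 to 0.931 CPM with both drugs, and the 6 monocyte markers to 1.36 to 11.2 and 0.931 to 13.4 CPM. The 3 stromal markers reached 22.0 CPM with ironomycin and 32.7 CPM with both drugs, mostly COL1A1 in MAVER1 (845 and 1247 reads), and the 4 epithelial markers 12.6 and 15.4 CPM. The part of these markers in the results was not tested. The JEKO1 library with both drugs stood apart: it held 2750 reads of the small nuclear RNA 7SK against 176 with ironomycin alone, and mitochondrially encoded mRNAs took 0.454% of its reads against 1.05%. In JVM2 and MAVER1, 7SK had 29 and 150 reads with both drugs and 17 and 116 with ironomycin. Values without JEKO1 are given for some of the leading genes and for some of the lists. In bulk RNA, fewer cells of a kind and less RNA per cell cannot be told apart.

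With ibrutinib added, few genes were called over the lines together. Among them were falls of EGR1, EGR2, PDCD1, FCRL5 and CD180 and rises of RAG1, HRK and VPREB3. At an adjusted p under 0.05, 62 of 16263 genes (0.381%) were called, 33 of them higher (0.203%) and 29 lower (0.178%). At an unadjusted p under 0.05 there were 3245 genes (20.0%), so the number of calls does not measure how many genes changed. Of the 62, 55 had the same direction in every line and 33 changed by at least 1 on the log2 scale, 18 of these lower and 15 higher. JVM2 had the smallest change for 41 of the 62, and 18 had fewer than 10 reads in both JVM2 libraries. Leaving out JEKO1, JVM2 or MAVER1 gave 243, 336 and 170 calls, which included 58, 53 and 48 of the 62. DESeq2 called 266 genes, 60 of them among the 62. With library totals in place of TMM scaling 62 genes were called, but split as 40 higher and 22 lower. With no call required, 142 genes (0.873%) were higher by at least 0.5 log2 in every line and 42 (0.258%) were lower by as much.

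**Figure D1:**
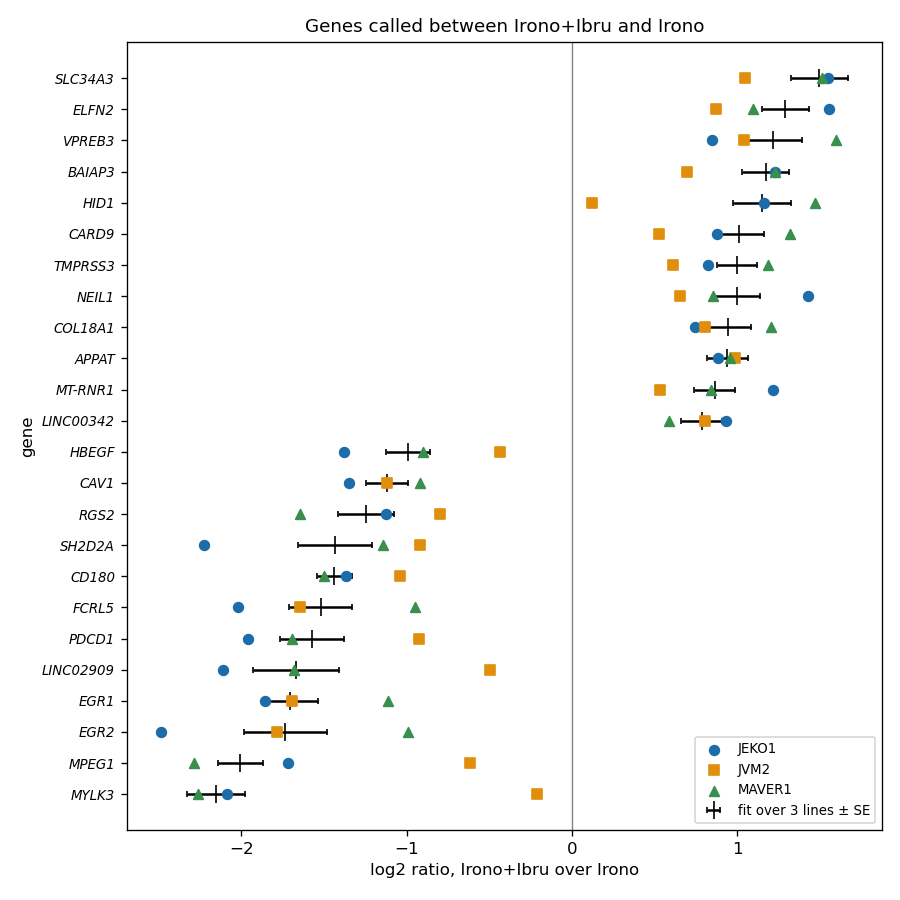
The x axis gives the log2 ratio of Irono+Ibru over Irono for 12 rises and 12 falls (y axis), the largest fitted changes among called genes with a symbol, a mean reaching 1 log2 CPM and 1 direction in all lines; symbols are the 3 lines and the black bar is the fitted fold change ± SE over the 3 lines. By the rule of choice all 24 genes lie on 1 side of 0 in every line. For MYLK3 (-0.21), MPEG1 (-0.62) and HID1 (0.12), among others, the JVM2 square lies nearer to 0 than the other lines. JVM2 held 6 and 5 reads of MYLK3 and 1 and 0 of MPEG1.

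The immediate early genes EGR1 and EGR2, zinc finger transcription factors, fell in every line. The EGR1 level in JEKO1 was 4.66 CPM with ironomycin and 1.25 CPM after adding ibrutinib; in JVM2 it was 21.1 and 6.44 CPM and in MAVER1 0.859 and 0.369 CPM. Its log2 fold change was -1.70 ± 0.17 (SE, adjusted p = 0.00923). EGR2 went from 5.38 to 0.923 CPM in JEKO1, from 9.94 to 2.83 CPM in JVM2 and from 5.18 to 2.59 CPM in MAVER1. All 3 EGR2 values with both drugs lay below all 3 with ironomycin, whereas for EGR1 the groups overlapped because the lines differ in level. The EGR2 log2 fold change was -1.73 ± 0.25 (adjusted p = 0.0363; without JVM2 -1.70, adjusted p = 0.0631). DUSP2, a nuclear phosphatase that removes phosphate from MAP kinases, fell from 50.3 to 32.5 CPM in JEKO1, from 175 to 123 CPM in JVM2 and from 23.7 to 18.4 CPM in MAVER1 (log2 fold change -0.50 ± 0.08, adjusted p = 0.0430; without JVM2 the adjusted p was 0.0580). SLA, a Src-like adaptor that dampens antigen receptor signalling, fell from 6.27 to 1.11 CPM in JEKO1 and from 2.63 to 0.739 CPM in MAVER1 and had 0 reads in both JVM2 libraries (log2 fold change -2.21 ± 0.27, adjusted p = 0.0294).

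These 4 genes were the called members of a list of 43 tested immediate early and activation-induced genes, all 4 of them lower (0.178% of all genes tested were called lower). Its median log2 fold change was -0.27, next to 0.01 over all genes tested. Of its members 32 were below 0, and 17 were lower at an unadjusted p under 0.05, where 9.81% of all genes tested were lower and 20.0% changed in either direction. By line, the median log2 ratio was lowest in JEKO1 (-0.36) and lay at -0.16 in JVM2 and -0.15 in MAVER1. Without JEKO1 the fitted median was -0.16, and EGR1 and EGR2 were at -1.63 and -1.43.

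Promoters of the genes with the largest changes were read from the RefSeq table (build GRCh38.p14, 250 bases before to 50 after the annotated start), which held 19 of the 24. They are shown for EGR1 and EGR2, the immediate early pair that fell together, and for PDCD1 and BAIAP3, the fall and the rise whose promoter held one of the motifs searched, with each match in capitals. EGR1 lies at chr5:138465229-138465528 on the plus strand, EGR2 at chr10:62819118-62819417 on the minus strand, PDCD1 at chr2:241858845-241859144 on the minus strand and BAIAP3 at chr16:1333395-1333694 on the plus strand.
EGR1: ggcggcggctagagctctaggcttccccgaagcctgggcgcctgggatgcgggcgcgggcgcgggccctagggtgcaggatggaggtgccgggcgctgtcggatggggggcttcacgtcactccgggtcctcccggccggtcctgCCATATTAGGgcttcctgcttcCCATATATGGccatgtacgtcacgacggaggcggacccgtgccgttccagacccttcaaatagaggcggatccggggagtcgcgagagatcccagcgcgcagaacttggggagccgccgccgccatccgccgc
EGR2: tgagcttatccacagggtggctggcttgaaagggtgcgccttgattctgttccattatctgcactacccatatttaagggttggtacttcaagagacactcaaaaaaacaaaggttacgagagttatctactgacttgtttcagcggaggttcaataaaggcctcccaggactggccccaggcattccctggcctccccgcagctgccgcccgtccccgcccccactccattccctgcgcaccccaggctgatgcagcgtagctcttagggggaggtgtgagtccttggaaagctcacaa
PDCD1: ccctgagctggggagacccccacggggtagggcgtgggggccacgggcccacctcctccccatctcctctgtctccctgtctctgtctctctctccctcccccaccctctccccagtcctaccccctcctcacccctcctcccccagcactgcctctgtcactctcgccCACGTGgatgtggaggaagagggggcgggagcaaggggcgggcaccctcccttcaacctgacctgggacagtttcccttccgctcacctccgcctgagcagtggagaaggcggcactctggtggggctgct
BAIAP3: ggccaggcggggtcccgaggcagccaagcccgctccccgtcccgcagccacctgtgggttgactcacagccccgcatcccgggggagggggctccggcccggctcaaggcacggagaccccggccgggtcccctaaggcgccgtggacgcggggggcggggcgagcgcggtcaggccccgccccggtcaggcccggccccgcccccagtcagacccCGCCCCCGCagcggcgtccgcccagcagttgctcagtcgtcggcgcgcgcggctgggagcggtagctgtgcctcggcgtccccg
The capitals in EGR1 are CArG boxes, the letters bound by serum response factor, starting at -105 and -83 relative to the annotated start. This motif was added after the sequences had been seen. It occurred in 1 of the 19 promoters and in 1.29% of all 27305. The capitals in PDCD1 are an E-box (CACGTG), found in 1 of the 19 and in 7.43% of all promoters, and those in BAIAP3 are an EGR motif on the minus strand (GCGGGGGCG), found in 1 of the 19 and in 5.02% of all. The cyclic AMP response element TGACGTCA (1.98% of all promoters), the kappa-B letters GGGACTTTC (0.366%) and GGGGATTCC (0.282%), the C/EBP-ATF letters TGATGCAA (0.923%) and TGATGAAA (1.10%), the FOXO letters GTAAACA (3.41%) and the E2F letters TTTCCCGC (1.66%) and TTTGGCGC (0.659%) were searched on both strands and occurred in 0 of the 19.

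Receptors and adaptors at the B-cell surface formed the next group of falls. PDCD1 encodes the inhibitory receptor PD-1. It went from 29.2 to 7.48 CPM in JEKO1, from 6.62 to 3.45 CPM in JVM2 and from 6.07 to 1.85 CPM in MAVER1, lower in each line (log2 fold change -1.57 ± 0.19, adjusted p = 0.0228). FCRL5, an Fc receptor-like protein with inhibitory motifs, went from 18.2 to 4.47 CPM in JEKO1, from 8.40 to 2.64 CPM in JVM2 and from 22.9 to 11.8 CPM in MAVER1 (-1.52 ± 0.19, adjusted p = 0.0247). For both genes the highest value with both drugs exceeded the lowest with ironomycin, so the fall showed within lines and the groups overlapped. CD72, an inhibitory co-receptor of the BCR, went from 85.0 to 58.9 CPM in JEKO1, from 3.98 to 2.18 CPM in JVM2 and from 108 to 57.0 CPM in MAVER1 (-0.75 ± 0.10, adjusted p = 0.0278). CD180, a Toll-like receptor homologue of B cells, fell from 52.4 to 20.4 CPM in JEKO1 and from 42.3 to 14.9 CPM in MAVER1. It had 4 reads with ironomycin and 1 with both drugs in JVM2, so its fold change of -1.44 ± 0.11 (adjusted p = 0.00301) rested on JEKO1 and MAVER1.

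PDCD1, FCRL5 and CD72 were the called members of the list of inhibitory receptors and phosphatases, in which 25 genes were tested. The median log2 fold change of the list was -0.31, 21 of its members were below 0 (48.4% of all genes tested were) and 13 were lower at an unadjusted p under 0.05 (9.81% of all genes tested), while 3 were called lower (0.178%). Without JEKO1 the fitted median was -0.27, with PDCD1 at -1.30 and FCRL5 at -1.23. PTPN6, which encodes the phosphatase SHP-1, went from 91.1 to 12.6 CPM in JEKO1, from 551 to 387 CPM in JVM2 and from 47.4 to 22.9 CPM in MAVER1. Its log2 ratios of -2.86, -0.50 and -1.05 differed widely between lines, and it was not called over the 3 lines (-1.41 ± 0.36, adjusted p = 0.133). Without JEKO1 it was at -0.76 and was called (edgeR, adjusted p = 1.52e-05), in a fit that called 243 genes.

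Other falls among the 12 largest were of genes with varied roles. MPEG1, the pore-forming perforin-2 of phagocytes and B cells, fell from 80.5 to 24.6 CPM in JEKO1 and from 148 to 30.4 CPM in MAVER1, and had 1 read and 0 reads in JVM2 (-2.01 ± 0.14, adjusted p = 0.00301). MYLK3, a myosin light chain kinase, fell from 6.27 to 1.44 CPM in JEKO1 and from 67.6 to 14.1 CPM in MAVER1, with 6 and 5 reads in JVM2 (-2.15 ± 0.18, adjusted p = 0.00486). In both genes JEKO1 and MAVER1 carried the fall and JVM2 held few reads. SH2D2A, an adaptor of T-cell signalling, fell from 25.3 to 5.39 CPM in JEKO1, from 55.5 to 29.2 CPM in JVM2 and from 5.58 to 2.51 CPM in MAVER1 (-1.43 ± 0.22, adjusted p = 0.0427; not called with library totals or with GC and length offsets). RGS2, a regulator of G-protein signalling, fell from 8.01 to 3.67 CPM in JEKO1, from 4.23 to 2.40 CPM in JVM2 and from 23.5 to 7.49 CPM in MAVER1 (-1.25 ± 0.17, adjusted p = 0.0325). CAV1, the coat protein of caveolae, fell from 7.39 to 2.89 CPM in JEKO1, from 7.83 to 3.56 CPM in JVM2 and from 25.8 to 13.6 CPM in MAVER1 (-1.12 ± 0.13, adjusted p = 0.0183). SH2D2A, RGS2 and CAV1 were thus lower with both drugs in each line, by a different factor in each. HBEGF, a ligand of the EGF receptor, fell from 158 to 84.5 CPM in MAVER1, where it was highest, with a fitted change of -0.99 ± 0.13 (adjusted p = 0.0325; without MAVER1 the adjusted p was 0.118). The non-coding LINC02909 was at -1.67 ± 0.26 (adjusted p = 0.0427), and not called with library totals (0.0581) or with GC and length offsets (0.0687).

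Other called falls included those of JCHAIN, FCMR, SIT1, PLD4 and CST7. JCHAIN, the joining chain of IgM and IgA, went from 142 to 103 CPM in JEKO1, from 86.2 to 64.3 CPM in JVM2 and from 317 to 219 CPM in MAVER1 (-0.48 ± 0.07, adjusted p = 0.0401). It was the 1 called gene among 15 tested plasma cell genes (0.178% of all genes tested were called lower). The list median was 0.04, with 11 members above 0. JCHAIN was not called without MAVER1 (adjusted p = 0.0920), with library totals or with GC and length offsets. FCMR, the Fc receptor for IgM, fell by 0.66 ± 0.10 on the log2 scale (adjusted p = 0.0390), the transmembrane adaptor SIT1 by 0.43 ± 0.07 (adjusted p = 0.0483) and the endosomal exonuclease PLD4 by 0.99 ± 0.09 (adjusted p = 0.00634), the last with at most 2 reads in JVM2. CST7, the protease inhibitor cystatin F, had the lowest fitted value of the called genes (-3.76 ± 0.35, adjusted p = 0.00634) but a mean below 1 log2 CPM. Its reads went from 223 to 21 in JEKO1, from 18 to 4 reads in JVM2 and from 217 to 8 reads in MAVER1. FCMR, SIT1 and PLD4 were singled out after their values had been seen.

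Among the rises were genes of early B cells and of apoptosis. RAG1, the recombinase subunit of early B cells, went from 1.44 to 5.58 CPM in JEKO1 and from 1.66 to 3.96 CPM in MAVER1, and from 1 read to 5 reads in JVM2 (1.62 ± 0.24, adjusted p = 0.0363). It was the 1 called member of 26 tested FOXO targets and quiescence genes (0.203% of all genes were called higher). The list had a median of 0.15 (0.065 without JEKO1) and 19 members above 0. The fit over all 12 libraries called RAG1, INSR and PIK3IP1 higher and IL7R lower, where 0.819% and 0.744% of all genes were. DESeq2, with 266 calls over all genes, called 3 members higher and 0 lower. In this list 8 genes were higher and 2 lower at an unadjusted p under 0.05 (10.1% and 9.81% of all genes tested). Its lowest value was that of IL7R, the interleukin 7 receptor chain, at -2.94 ± 0.60 (adjusted p = 0.0905; called in the 12-library fit, adjusted p = 0.0362). Without JEKO1, RAG1 was at 1.29. HRK, a BH3-only killer protein of the BCL2 family, rose from 10.5 to 23.7 CPM in JEKO1 and from 10.1 to 18.3 CPM in MAVER1 and had 1 read in each JVM2 library (1.01 ± 0.14, adjusted p = 0.0363). Of the 15 BCL2 family genes tested HRK was the 1 called, and the list median was 0.05. In this list the 12-library fit called HRK higher and BAK1 lower (0.819% and 0.744% of all genes). VPREB3, a pre-B-cell receptor chaperone, rose from 27.1 to 49.0 CPM in JEKO1 and from 10.7 to 32.7 CPM in MAVER1, with 0 and 2 reads in JVM2 (1.22 ± 0.18, adjusted p = 0.0363). In all of RAG1, HRK and VPREB3 the rise rested on JEKO1 and MAVER1, since JVM2 held few or no reads.

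SLC34A3, a sodium-phosphate cotransporter, had the largest fitted rise of the 12 plotted: 1.46 to 4.38 CPM in JEKO1, 0.302 to 0.674 CPM in JVM2 and 4.32 to 12.4 CPM in MAVER1 (1.50 ± 0.17, adjusted p = 0.0183). NEIL1, a DNA glycosylase of base excision repair, rose from 5.96 to 16.2 CPM in JEKO1, from 3.65 to 5.74 CPM in JVM2 and from 33.2 to 60.1 CPM in MAVER1 (1.0 ± 0.14, adjusted p = 0.0363). CARD9, an adaptor of innate receptors, rose from 17.6 to 32.4 CPM in JEKO1, from 0.604 to 0.889 CPM in JVM2 and from 3.60 to 9.05 CPM in MAVER1 (1.01 ± 0.15, adjusted p = 0.0399). Each of these was higher with both drugs in all lines, and JVM2 had the smallest log2 ratio for all 3. HID1, a protein of dense-core vesicle formation, rose from 22.4 to 50.3 CPM in JEKO1 and from 32.5 to 90.5 CPM in MAVER1 and was at 1.57 and 1.70 CPM in JVM2 (1.15 ± 0.17, adjusted p = 0.0401). COL18A1, the collagen that yields endostatin, rose from 18.2 to 30.7 CPM in JEKO1, from 0.659 to 1.19 CPM in JVM2 and from 5.21 to 12.1 CPM in MAVER1 (0.94 ± 0.14, adjusted p = 0.0377). Under GC and length offsets NEIL1, CARD9, HID1 and COL18A1 were no longer called, with adjusted p of 0.0503, 0.0900, 0.0540 and 0.125.

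Of the other rises named by rule, the changes of ELFN2, BAIAP3, TMPRSS3, APPAT and LINC00342 were 1.29 ± 0.14, 1.17 ± 0.14, 1.0 ± 0.12, 0.94 ± 0.12 and 0.78 ± 0.12 on the log2 scale. TMPRSS3 had 0 and 1 reads in JVM2, and ELFN2 had 4 and 9. MT-RNR1, the mitochondrial 12S ribosomal RNA, rose from 436 to 1020 CPM in JEKO1, from 142 to 204 CPM in JVM2 and from 175 to 314 CPM in MAVER1 (0.86 ± 0.12, adjusted p = 0.0363). The 13 mitochondrially encoded mRNAs lay in the opposite direction, with a median of -0.57 and 0 called by edgeR or DESeq2 (9 lower at an unadjusted p under 0.05). JEKO1 had a median log2 ratio of -1.41 in this list and MAVER1 of -0.47, while JVM2 was at 0.08, and the fitted median without JEKO1 was -0.16. Whether RNA quality played a part in the mitochondrial values was not tested.

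Changes in the B-cell receptor apparatus itself were small, with more genes lower than higher. Of 48 tested signalosome genes 0 were called by edgeR and 1, lower, by DESeq2 (266 of 16263 over all genes). At an unadjusted p under 0.05, 1 was higher and 5 were lower (10.1% and 9.81% of all genes tested). The median log2 fold change was -0.08 (-0.055 without JEKO1), and 35 members were below 0 (48.4% of all genes tested were). BTK, the target of ibrutinib, was at 171 and 187 CPM in JEKO1, 119 and 104 CPM in JVM2 and 195 and 191 CPM in MAVER1 (-0.03 ± 0.08, adjusted p = 0.851). The lowest p-values in the list belonged to NFATC1, a calcium-responsive transcription factor (-0.55 ± 0.12, adjusted p = 0.111), the kinase LYN (-0.42 ± 0.11, adjusted p = 0.133) and the exchange factor VAV1 (-0.32 ± 0.09, adjusted p = 0.142). All 3 had negative log2 ratios in every line, the largest in size in JEKO1. CD22, an inhibitory co-receptor, was at 9.18 and 14.3 CPM in JEKO1, 358 and 353 CPM in JVM2 and 18.0 and 24.7 CPM in MAVER1 (0.33 ± 0.12, adjusted p = 0.195). The 33 tested NF-kappa-B targets had a median of -0.07 with 0 called by edgeR or DESeq2 (6 higher and 2 lower at an unadjusted p under 0.05), and the lines disagreed in sign, with -0.35 in JEKO1 against 0.14 in JVM2 and 0.09 in MAVER1. Without JEKO1 the fitted median of this list was 0.12.

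**Figure D2:**
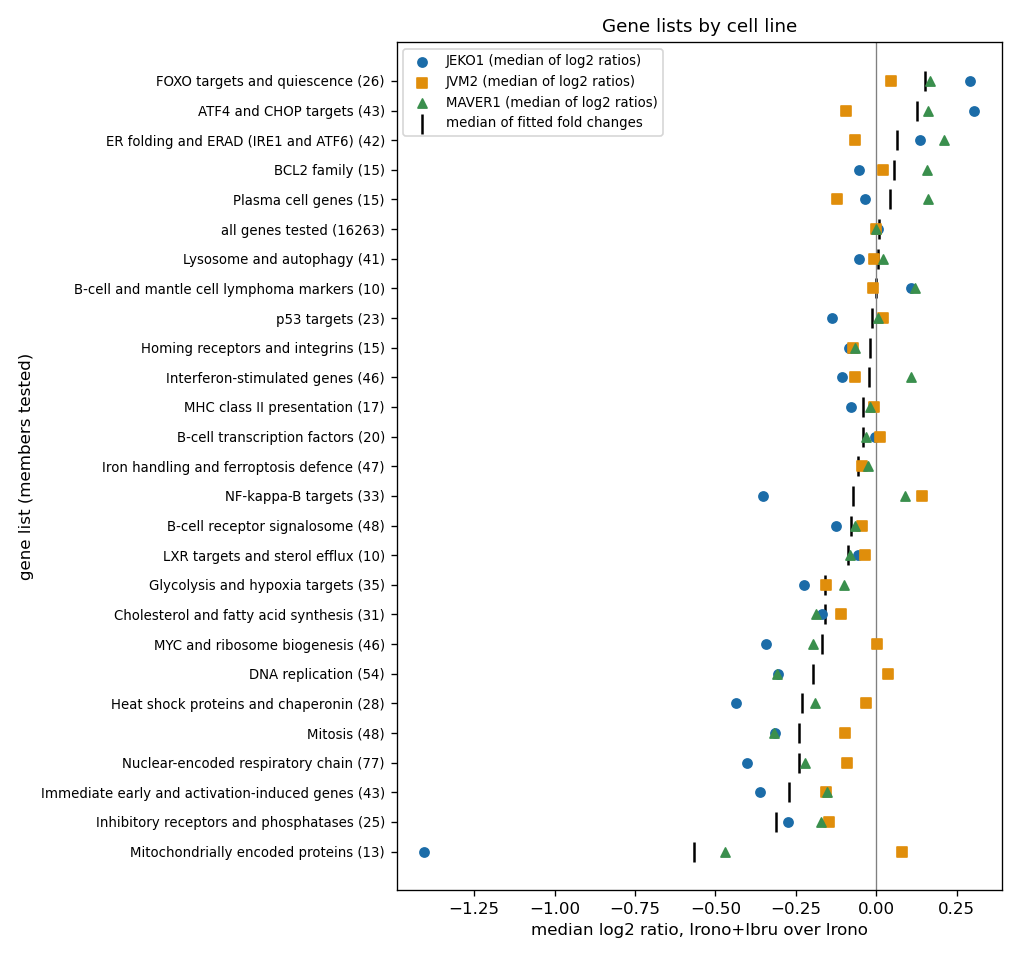
Each row is a gene list with the number of members tested; the x axis gives the median log2 ratio of Irono+Ibru over Irono in each line (symbols) and the median of the fitted fold changes (black bar). The lists of inhibitory receptors (-0.31) and immediate early genes (-0.27) lie left of 0 in all lines, while DNA replication lies left of 0 in JEKO1 and MAVER1 (-0.31 in both) and at 0.04 in JVM2.

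The unfolded protein response (UPR) restores protein folding in the endoplasmic reticulum through IRE1, ATF6 and PERK, and its genes were followed by list. Of 42 tested genes of ER folding and ER-associated degradation 34 were above 0, and 9 were higher at an unadjusted p under 0.05 (10.1% of all genes were). In this list 0 were called by edgeR and 2, higher, by DESeq2 (266 of 16263 over all genes). The list median was 0.065 (JEKO1 0.13, JVM2 -0.065, MAVER1 0.21), and the fitted median without JEKO1 was 0.0485. ERN1, which encodes the ER stress sensor IRE1 alpha, was at 179 and 287 CPM in JEKO1, 66.1 and 73.8 CPM in JVM2 and 153 and 254 CPM in MAVER1. It was higher with both drugs in each line without being called (0.53 ± 0.11, adjusted p = 0.0979), and was called in the fit over 12 libraries (adjusted p = 0.0396), as was DERL3 of the degradation machinery (0.0305). DDIT3, the pro-apoptotic factor CHOP, was at 89.7 and 143 CPM in JEKO1, 21.9 and 20.3 CPM in JVM2 and 35.5 and 51.2 CPM in MAVER1 (0.38 ± 0.13, adjusted p = 0.182). XBP1 and HSPA5, the main factor and chaperone of the response, had values of 0.10 ± 0.09 and 0.03 ± 0.11 (adjusted p = 0.565 and 0.905). The 43 tested ATF4 and CHOP targets had a median of 0.13 with 34 above 0 and 0 called by edgeR or DESeq2 (12 higher and 3 lower at an unadjusted p under 0.05). JVM2 had a median log2 ratio of -0.09, while JEKO1 and MAVER1 had 0.31 and 0.16. Without JEKO1 the fitted median of the ATF4 and CHOP targets was 0.0143, with DDIT3 at 0.23 and ERN1 at 0.45. PDIA2, a disulfide isomerase outside these lists, rose from 250 to 411 CPM in JEKO1 and from 5.85 to 10.4 CPM in MAVER1, with 1 and 3 reads in JVM2 (0.76 ± 0.10, adjusted p = 0.0244). It was not called without JEKO1 (adjusted p = 0.0844) or without MAVER1 (adjusted p = 0.0638).

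Growth and metabolic lists were mostly below 0, by small amounts and with 0 genes called in each by edgeR. DESeq2 called 7 mitosis genes, 6 glycolysis genes and 1 gene each of the MYC, heat shock and cholesterol lists, all lower, and 0 of the replication and respiratory chain lists. Over all 16263 genes DESeq2 called 266, higher and lower together. The 12-library fit called 9 mitosis genes, 5 glycolysis genes, 2 respiratory chain genes and 1 gene each of the replication, MYC, heat shock and cholesterol lists, all lower, where 0.744% of all genes were. Of all genes tested in the 6 libraries 48.4% were below 0 and 9.81% were lower at an unadjusted p under 0.05. Without JEKO1, the library pair with the RNA composition described above, the list medians were -0.22 for mitosis, -0.15 for replication, -0.17 for the respiratory chain, -0.10 for MYC, -0.10 for heat shock, -0.14 for glycolysis and -0.14 for cholesterol synthesis. Among 48 mitosis genes 46 were below 0, with a median of -0.24, and 33 were lower at an unadjusted p under 0.05. JEKO1 and MAVER1 shared a median log2 ratio of -0.32, and JVM2 was at -0.10. CCNA2, cyclin A2, had the lowest p of the list (-0.40 ± 0.08, adjusted p = 0.0899). Among 54 DNA replication genes 52 were below 0 (median -0.20) and 21 were lower at an unadjusted p under 0.05, with RRM2, a ribonucleotide reductase subunit, at -0.43 ± 0.11 (adjusted p = 0.138). The 77 nuclear-encoded respiratory chain genes had a median of -0.24 with 72 below 0 and 52 lower at an unadjusted p under 0.05, and the 46 MYC and ribosome biogenesis genes a median of -0.17 with 18 lower at that p. Heat shock proteins and chaperonin (28 genes, median -0.23), glycolysis and hypoxia targets (35 genes, -0.16) and cholesterol and fatty acid synthesis (31 genes, -0.16) lay on the same side, with 12, 11 and 13 genes lower at that p. LDHA, which converts pyruvate to lactate, was at -0.56 ± 0.11 (adjusted p = 0.0844), with log2 ratios of -0.84, -0.39 and -0.45 in JEKO1, JVM2 and MAVER1. Its value was the lowest in p of the glycolysis list, and PGK1 (-0.43 ± 0.09) and PGAM1 (-0.45 ± 0.10) were also negative in every line. The remaining lists had medians between -0.09 and 0.05. These were LXR targets, MHC class II, interferon-stimulated genes, B-cell transcription factors, homing receptors, p53 targets, lysosome and autophagy, iron handling, plasma cell genes, the BCL2 family and the B-cell and MCL markers. Of 47 iron handling and ferroptosis defence genes, 9 were lower and 2 higher at an unadjusted p under 0.05. Outside the plasma cell and BCL2 family lists, the 12-library fit called ACSL4 and SFXN1 of iron handling lower and CLCN7 of the lysosome list higher. There DESeq2 called 1 gene lower each in iron handling and homing receptors, and 1 higher each in the lysosome and p53 lists. CCND1, BCL2, MCL1 and TFRC, the transferrin receptor, had values of -0.02 ± 0.11, 0.08 ± 0.09, 0.01 ± 0.08 and -0.20 ± 0.11, with adjusted p of 0.953, 0.658, 0.956 and 0.331.

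The effect of ibrutinib in the presence of ironomycin was set beside its effect without it, in a fit over all 12 libraries in which the 2 comparisons share no library. In that fit 292 of 18674 genes (1.56%) were called with ironomycin, 153 higher (0.819%) and 139 lower (0.744%), and 29 (0.155%) were called without it, 7 higher (0.0375%) and 22 lower (0.118%). The called sets shared 24 genes, all with the same direction, which is 8.22% of the 292 and 82.8% of the 29. Of the 62 genes called in the 6 libraries, 15 were also called without ironomycin, and 56 had the same sign there. Across the 11669 genes whose mean reached 1 log2 CPM, Pearson's r between both effects was 0.531 and across all 18674 genes it was 0.387, as a description across genes, which are not independent.

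**Figure D3:**
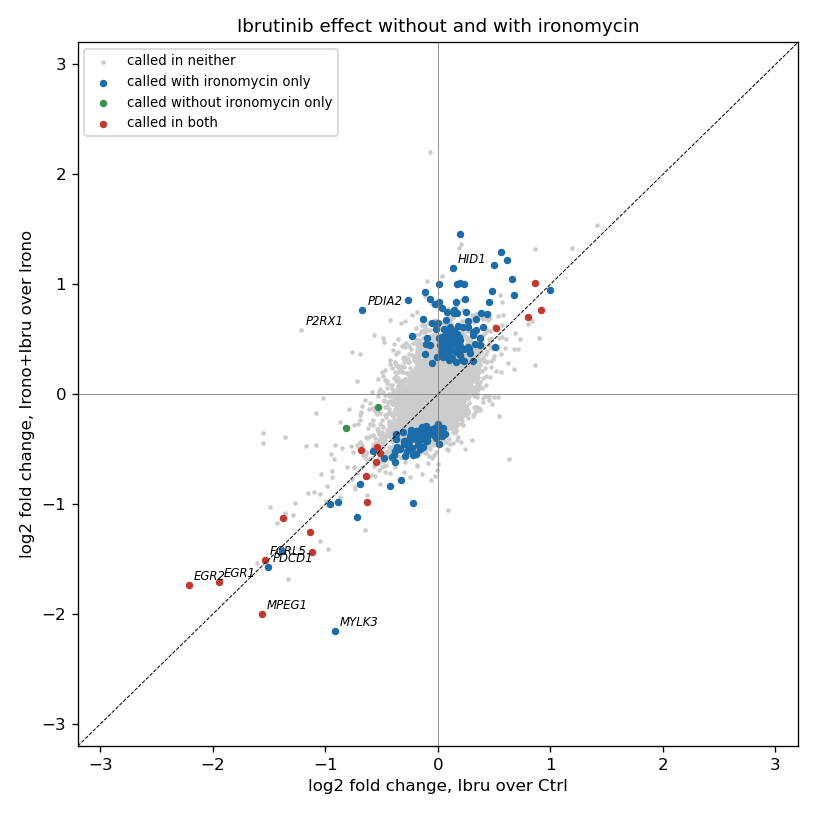
Each point is a gene whose mean reached 1 log2 CPM; the x axis is its log2 fold change of Ibru over Ctrl and the y axis that of Irono+Ibru over Irono, both from the 12-library fit, with the line of equal effect dashed. EGR1 and EGR2 lie near the dashed line (-1.94 and -2.21 without ironomycin, -1.71 and -1.73 with it), whereas PDIA2 and HID1 lie above it.

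Several genes had like values with and without ironomycin. The log2 fold change of EGR1 was -1.71 with ironomycin and -1.94 without it, that of FCRL5 -1.51 and -1.54, that of CD180 -1.43 and -1.12 and that of RAG1 1.63 and 2.20, and these 4 were called in both settings. For PDCD1 both values were alike (-1.57 and -1.51), with adjusted p of 0.0370 and 0.159. Other genes had a value near 0 without ironomycin. HID1 was at 1.14 with ironomycin and 0.13 without it, TMPRSS3 at 1.0 and 0.01, MT-RNR1 at 0.87 and -0.07 and NEIL1 at 1.0 and 0.17. The difference between both settings was tested for each gene. The fit held a common ibrutinib coefficient for all lines in each setting, so differences between lines in the ibrutinib effect counted as error. In this test 0 of 18674 genes were called (edgeR), while 1225 (6.56%) had an unadjusted p under 0.05 and DESeq2 called 9. The 0 calls therefore do not show that the effect was the same in both settings. PDIA2 had the lowest p: it was at 0.76 with ironomycin and -0.67 without it, a difference of 1.44 (95% interval 1.07 to 1.80, adjusted p = 0.0585). In JEKO1 it was at 15.6 CPM in control cells, 9.80 with ibrutinib, 250 with ironomycin and 411 with both. Without ironomycin, PDIA2 counts were low outside JEKO1. Control and ibrutinib-treated MAVER1 cells held 14 and 8 reads, and JVM2 cells 0 and 1, against 622 and 390 for JEKO1. The value of -0.67, on which the difference and its interval depend, thus rested mainly on the JEKO1 pair. P2RX1, an ATP-gated channel, was at 0.58 with ironomycin and -1.22 without it (difference 1.80, 95% interval 1.10 to 2.49, adjusted p = 0.636).

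**Figure D4:**
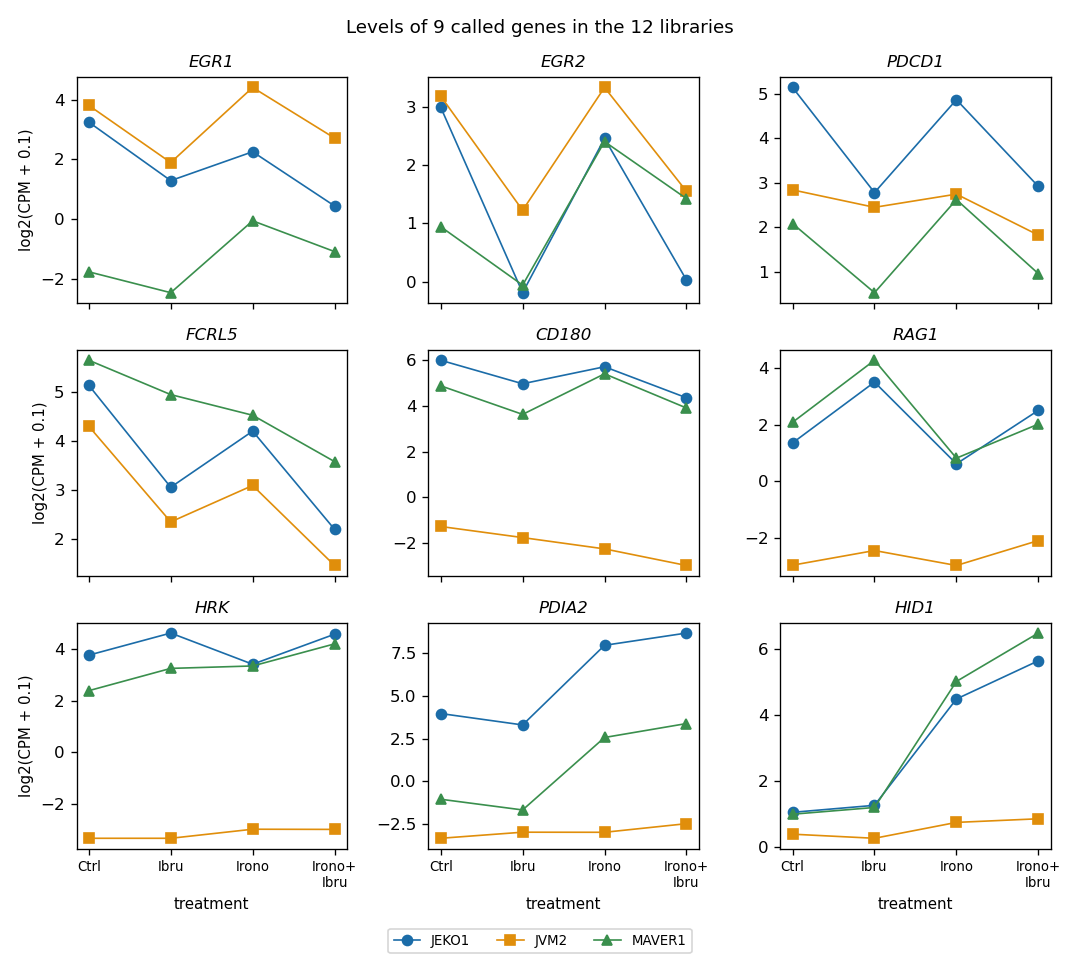
Levels of 9 called genes as log2(CPM + 0.1) on the y axis in all 12 libraries, by treatment on the x axis and by line (symbols). EGR1, EGR2, PDCD1, FCRL5 and CD180 are lower with ibrutinib than without it in every line, with or without ironomycin, while PDIA2 and HID1 differ most between libraries with and without ironomycin in JEKO1 and MAVER1.

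By list, the median change without ironomycin was -0.32 for immediate early genes and -0.39 for inhibitory receptors, next to -0.27 and -0.30 with it. Mitosis and DNA replication had medians on opposite sides of 0: mitosis was at 0.07 without and -0.24 with it, and replication at 0.06 and -0.20. The MYC, respiratory chain and heat shock lists were below 0 in both settings, at -0.015, -0.075 and -0.017 without and -0.17, -0.24 and -0.23 with it, while mitochondrially encoded mRNAs were at -0.0012 and -0.57. The difference was below 0 for 47 of 48 mitosis genes and for 54 of 54 replication genes, where 9119 of all 18674 genes were below 0. These are descriptions with no test, and in JVM2 the replication median with ironomycin was 0.04.

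The effect of ibrutinib differed between lines for 177 of 18674 genes (0.948%), tested over the libraries with and without ironomycin together, since 1 library per line and treatment does not allow the test within ironomycin alone (1851 genes, 9.91%, at an unadjusted p under 0.05). The effect was largest in JEKO1 for 142 of these, in MAVER1 for 21 and in JVM2 for 14, and its sign differed between lines for 128. Without JEKO1, 38 genes were called, and without JVM2, 10. ZBTB32, a repressor induced in activated B cells, had the lowest p (adjusted p = 9.04e-06). In the ironomycin libraries it went from 9.73 to 0.852 CPM in JEKO1, from 112 to 108 CPM in JVM2 and from 1.05 to 0.422 CPM in MAVER1, so that the line with the highest level moved least. MYO1E, HIVEP3, CD86 and MX1, an unconventional myosin, a zinc finger protein, a co-stimulatory ligand and an interferon-induced GTPase, had log2 ratios with ironomycin of -2.60, -1.97, -1.49 and -1.42 in JEKO1 and of -0.12, 0.22, 0.12 and 0.07 in JVM2. MAVER1 lay nearer to JVM2 for MX1 (0.17) and between the other lines for the remaining 3. The chemokine receptor CCR2 (adjusted p = 0.00194) and the myosin-binding protein MYBPC2 (adjusted p = 0.00175) were lowest in MAVER1, with -3.40 and -2.93. Only 4 of the 177 were among the 62 genes called over the lines, EGR2, PDCD1, FCRL5 and SH2D2A, each lower in all lines but by different amounts.

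**Figure D5:**
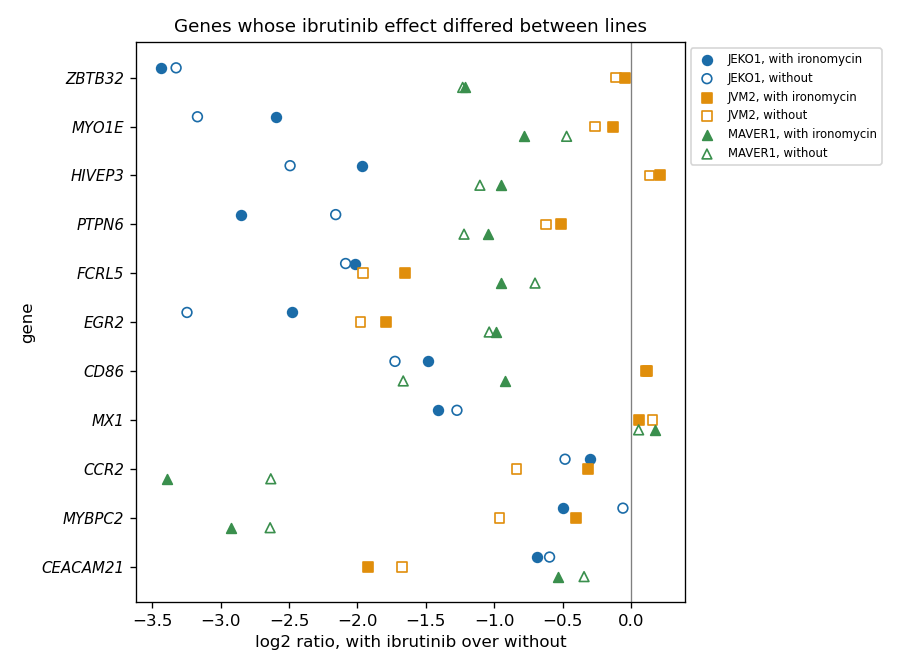
The x axis gives the log2 ratio of the library with ibrutinib over the library without it, in each line (symbols), with ironomycin (filled) and without it (open), for 11 genes whose ibrutinib effect differed between lines (y axis). JEKO1 is lowest for ZBTB32, MYO1E and HIVEP3, MAVER1 for CCR2 and MYBPC2 and JVM2 for CEACAM21 (-1.92 with ironomycin), and within a line the filled and open symbols lie on the same side of 0.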

How the data were processed

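RNA-seq of JEKO1, JVM2 and MAVER1 cells (12 libraries) was analysed from the deposited table of raw read counts per gene, which the authors made from their reads; the submitters' processing notes name STAR, DESeq2 and GRCh37, and the counter and annotation release are not given in the sources used here. Of 63677 gene identifiers 39699 were matched to a symbol in the gene name table and 4 in a table of the study. No column of the table was left unused, and coordinates were not taken from the files, whose build differs from the reference used for promoters. After filterByExpr and TMM scaling, a quasi-likelihood model was fitted (edgeR 4.0.16 under R 4.3.3, p-values adjusted by Benjamini-Hochberg) to the 6 Irono and Irono+Ibru libraries with cell line as a block (16263 genes, 2 residual degrees of freedom before moderation). A second fit used all 12 libraries (18674 genes), with a term for each line with or without ironomycin. Fold changes and SEs come from these fits, per-line log2 ratios from CPM with a prior count of 2, and printed CPM from the 12-library scaling. DESeq2 1.42.0, other scalings and filters, left-out lines and other designs were alternatives, and offsets for GC content and gene length were added after seeing the data. The methods were tested on simulated counts with a fixed dispersion. For Irono+Ibru against Irono the simulated effect was the same in every line. Error rates under a spread of the effect between lines were therefore not tested. The lines pair the libraries because both libraries of a pair come from 1 cell line: after subtracting treatment means, libraries correlated at 0.957 to 0.972 within lines (3 pairs) and at -0.649 to -0.148 between lines (6 pairs). The depth of 35448523 to 38630809 reads per library limits genes with few reads, and intervals cover the spread between libraries only. Genes were named by rule: the 12 largest rises and 12 largest falls among called genes with a symbol, a mean reaching 1 log2 CPM and 1 direction in all lines; transcripts the study names; for each list the called members or else the 3 lowest p; the 4 highest and 4 lowest log2 ratios per line with at least 100 reads; and the 5 lowest p for each difference. Members and lists were chosen with earlier results of these data known. At least 1 gene is not reported here.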

Additional observations from a re-analysis of the deposited data

Results flagged for a closer look

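The effect of ibrutinib, taken over the libraries with and without ironomycin, differed between the 3 cell lines for 177 genes (edgeR interaction test, adjusted p under 0.05; dose and line cannot be told apart). Among the genes named by rule, ZBTB32 led with an adjusted p of 9.04e-06, followed by MYO1E (0.000229) and by MX1, CD86 and HIVEP3 (0.000469 each). MYBPC2 (0.00175) and CCR2 (0.00194) had their lowest ratio in MAVER1. The adjusted p was 0.0031 for PTPN6, 0.00476 for SH2D2A, 0.00637 for FCRL5, 0.0216 for PDCD1, 0.0349 for EGR2 and 0.0456 for the integrin chain ITGB2, each with the lowest ratio in JEKO1. CEACAM21, an adhesion molecule of the CEA family, had the lowest ratio in JVM2 (adjusted p = 0.0285), where it went from 2.80 to 0.701 CPM with ironomycin. The JEKO1 library with both drugs is the one that held 2750 reads of 7SK, and its part in these values was not tested. For ZBTB32, PTPN6 and MX1 the JEKO1 ratio without ironomycin, from other libraries, was -3.33, -2.16 and -1.27.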

How the results depend on the processing

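The 62 calls became 316 with no filter on low counts (161 higher, 155 lower), 266 with DESeq2, 292 with pair terms over 12 libraries, 207 at an adjusted p under 0.1, 33 with a log2 change of at least 1 and 15 in a refit limited to genes whose mean reached 1 log2 CPM, although 54 of the 62 met that mean. With no replicate block, or with treatment and line terms over 12 libraries, 0 were called. Leaving out 1 line gave 170 to 336 calls, from 2 pairs. With GC and length offsets, added after seeing the data, 43 were called (21 higher, 22 lower). The 184 genes moving by 0.5 log2 in every line became 10 at 1 log2, 117 with a prior count of 5 and 390 to 980 with a line left out. The 0 genes differing with and without ironomycin became 1 with library totals, 9 with DESeq2, 9 with no filter and 5 without JVM2. The 29 calls of ibrutinib alone became 64 with DESeq2, 127 with no filter, 0 with no replicate block and 5 to 85 with a line left out. The 177 genes differing between lines became 335 with DESeq2, 53 with no filter and 10 to 231 with a line left out.

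Medians of some lists moved by more than 1 SD of the line medians. With library totals they were -0.0235 for the B-cell receptor signalosome, -0.244 for inhibitory receptors, -0.106 for cholesterol synthesis, -0.032 for LXR targets, 0.0151 for MHC class II, 0.0217 for B-cell factors, 0.0354 for homing receptors, 0.0648 for lysosome and -0.0016 for iron handling. With no filter they were -0.112 for LXR targets, -0.0654 for B-cell factors, -0.0618 for homing receptors and -0.0693 for iron handling. With DESeq2 they were -0.0583 for LXR targets, -0.0378 for homing receptors and -0.0392 for iron handling. With no replicate block they were -0.190 for inhibitory receptors and -0.0622 for homing receptors. With treatment and line terms over 12 libraries they were -0.006 for homing receptors. With pair terms they were -0.0287 for homing receptors. With GC and length offsets they were -0.0522 for LXR targets, 0.0461 for MHC class II, -0.0627 for B-cell factors, 0.0493 for homing receptors and -0.023 for iron handling. With 1 line left out the ranges were iron handling -0.0855 to -0.0677, MHC class II -0.0834 to -0.0167, B-cell factors -0.0666 to 0.0343, homing receptors -0.0812 to -0.0206, inhibitory receptors -0.318 to -0.232, LXR targets -0.116 to -0.0884 and lysosome -0.0476 to 0.0391.

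Uncalled genes changed sign. With library totals BTK was at 0.0217 and CCND1 at 0.0396. With no filter MCL1 was at -0.0112. With DESeq2 IGLV1-44 was at 0.0244. With no replicate block CCND1 was at 0.018 and CD86 at 0.0344. With GC and length offsets BTK was at 0.0209, IGLV1-47 at 0.0787 and IGLV1-44 at 0.118. With 1 line left out the ranges were CCND1 -0.0692 to 0.0263, MX1 -0.712 to 0.109, CD86 -1.42 to 0.0284, BTK -0.114 to 0.0328, MCL1 -0.0456 to 0.0872, IGLV1-47 -0.400 to 0.157, IGLV1-44 -0.151 to 0.0591, HSPA5 -0.105 to 0.107 and KRT8 -0.0416 to 1.22. Over the alternatives in which single genes were followed, values of named genes kept direction and side of the threshold 1088 times. They lost a call 80 times, gained one 88 times and reversed 19 times. The refit limited by mean level, in which most calls were lost, and the changes of threshold are not in this tally. Except where stated the cause was not tested. Depth limits genes with few reads in JVM2.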

Other observations

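IL7R had the lowest ratio in JEKO1, from 466 to 27 reads, and went from 152 to 15 reads in MAVER1 and from 19 to 22 reads in JVM2 (adjusted p = 0.0905). PIGR, which carries IgA and IgM across epithelia, went from 169 to 16 reads in JEKO1, with log2 ratios of -3.26, -1.02 and -2.66 in JEKO1, JVM2 and MAVER1 (adjusted p = 0.0984). IGFBP2, an insulin-like growth factor binding protein, went from 14 to 168 reads in JEKO1. In JVM2 the highest ratios were those of PRR18 (31 to 110 reads) and SPOCK2, a secreted proteoglycan (45 to 104 reads), and SPOCK2 was called over the lines (0.77, adjusted p = 0.0385). In MAVER1 the highest ratios were those of JAKMIP3 (173 to 729 reads) and PLXNB3, a semaphorin receptor (61 to 223 reads).

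The 1056 long non-coding RNAs tested lay at a median of 0.13 on the log2 scale, with 4 called higher and 1 lower, against -0.02 over 12315 protein-coding genes with 25 higher and 23 lower. JEKO1 had the highest median of the long non-coding RNAs (0.26), JVM2 was at 0.00 and MAVER1 at 0.08, and their share of reads in JEKO1 was 0.845% with ironomycin and 1.06% with both drugs. Markers of other cell types (7 of 24 tested) had a median of 0.20 with 0 called by edgeR or DESeq2 and 1 lower at an unadjusted p under 0.05.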
